A study of Mus musculus with 23 samples.

Results

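The neutrophil granule and receptor genes are 10 genes picked by name from the table of normalized read counts of bone chips enriched in osteocytes. They are *Elane*, *Mpo*, *Prtn3* and *Ctsg* of the primary granules, *Camp*, *Ltf* and *Lcn2* of the secondary granules, and *S100a8*, *S100a9* and *Cxcr2* of the mature cell. They are 10 of 21402 genes in the table, and all 10 passed the filter on low values, 10 normalized counts or more in 2 or more libraries, which left 15638 genes for testing. RNA came from 23 C57BL/6 mice (C57BL/6J in the methods of the study) aged 5 months, in 8 groups. FNDC5 KO and WT mice of each sex were fed a low-calcium diet (0.01% calcium) or a control diet (0.6% calcium) for 2 weeks. There were 3 mice in every group other than low-calcium KO females, where there were 2. The deletion is global, so every cell type of a KO mouse carries it, and the chips are shafts of tibia and femur from which marrow had been flushed and surface cells digested.

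Neutrophils are made in the bone marrow, and each kind of granule is filled at its own stage. Promyelocytes make the proteins of the primary granules, myelocytes and metamyelocytes make those of the secondary granules, and the cytosolic S100 proteins and the chemokine receptor CXCR2 mark later cells. CXCR2 draws mature neutrophils out of the marrow, while the receptor CXCR4 and its ligand CXCL12 hold them there.

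The 10 genes lie on 7 chromosomes in GRCm38, and 2 pairs are neighbours. *Prtn3* (chr10:79874476-79883174) and *Elane* (chr10:79886247-79888215) are on the same strand with 3073 bases between them, and *S100a8* (chr3:90668978-90670035) and *S100a9* (chr3:90692632-90695721) are on opposite strands with 22597 bases between them. *Lcn2* spans chr2:32384633-32388252 on the minus strand, and *Cxcr2* spans chr1:74153989-74161246 on the plus strand. These spans are from GENCODE. The promoters of 5 of the genes are printed because these genes stand for the stages compared below, *Elane* for the primary granule, *Lcn2* for the secondary granule, and *S100a8*, *S100a9* and *Cxcr2* for the mature cell. Each runs 5′ to 3′ on the strand of its gene, from 250 bases before the start of the gene to 50 bases after it, in RefSeq for GRCm38.p6. The RefSeq starts can differ from those of GENCODE, and the window of *Lcn2* lies wholly inside the GENCODE span of the gene. Capitals mark matches, on either strand, to the letters AGGAAG of PU.1, TTGCNNAA of C/EBP, TAACNG of Myb and TATAAA of a TATA box. The windows are chr10:79886062-79886361 for *Elane*, chr2:32387690-32387989 for *Lcn2*, chr3:90668821-90669120 for *S100a8*, chr3:90695672-90695971 for *S100a9* and chr1:74153744-74154043 for *Cxcr2*.
Elane: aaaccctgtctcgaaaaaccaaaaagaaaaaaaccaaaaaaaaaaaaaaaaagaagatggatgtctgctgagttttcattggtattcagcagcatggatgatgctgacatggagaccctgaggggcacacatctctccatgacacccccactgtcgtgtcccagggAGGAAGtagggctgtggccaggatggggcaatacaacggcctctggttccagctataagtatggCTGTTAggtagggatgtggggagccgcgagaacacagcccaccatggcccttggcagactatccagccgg
Lcn2: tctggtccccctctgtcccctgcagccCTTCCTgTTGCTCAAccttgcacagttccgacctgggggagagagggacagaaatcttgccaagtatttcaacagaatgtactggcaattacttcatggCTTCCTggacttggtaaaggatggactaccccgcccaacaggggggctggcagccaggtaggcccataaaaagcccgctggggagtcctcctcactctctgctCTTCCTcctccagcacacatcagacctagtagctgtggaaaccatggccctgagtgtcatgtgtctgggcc
S100a8: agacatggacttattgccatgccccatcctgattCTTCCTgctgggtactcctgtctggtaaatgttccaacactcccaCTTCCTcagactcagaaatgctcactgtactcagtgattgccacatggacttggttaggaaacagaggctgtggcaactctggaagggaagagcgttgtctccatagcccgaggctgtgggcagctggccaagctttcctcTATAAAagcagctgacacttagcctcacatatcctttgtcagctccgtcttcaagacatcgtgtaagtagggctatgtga
S100a9: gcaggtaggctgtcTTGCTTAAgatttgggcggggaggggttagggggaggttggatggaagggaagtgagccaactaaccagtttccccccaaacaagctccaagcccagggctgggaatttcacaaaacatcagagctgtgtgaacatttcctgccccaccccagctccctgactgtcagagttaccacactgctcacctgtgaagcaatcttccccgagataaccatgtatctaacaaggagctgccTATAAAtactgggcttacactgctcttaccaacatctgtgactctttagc
Cxcr2: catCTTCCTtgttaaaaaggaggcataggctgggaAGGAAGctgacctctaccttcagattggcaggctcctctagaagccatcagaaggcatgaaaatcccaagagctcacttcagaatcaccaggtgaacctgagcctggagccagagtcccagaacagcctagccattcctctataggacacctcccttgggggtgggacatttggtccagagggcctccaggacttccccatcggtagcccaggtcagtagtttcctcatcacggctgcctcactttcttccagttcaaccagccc

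A promoter of this length was found for all 10 genes and for 32851 promoters in all. The PU.1 letters were present in 9 of the 10, all but *S100a9*, against 35.4% of all promoters. The C/EBP letters were present in 3, *Lcn2*, *Ltf* and *S100a9*, against 10.8% of all promoters. The Myb letters were present in *Elane* and *Mpo*, against 23.3% of all promoters, and the TATAAA letters in *S100a8*, *S100a9* and *Ctsg*, against 13.6%. Counted from the start, these last matches lay at -30 to -25 in *S100a8* and at 0 to 5 in *S100a9*. In *Ctsg* the match lay at -237 to -232, on the opposite strand. A match to these letters is a description of the sequence and no evidence that a factor binds there.

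Reads recovered from the normalized counts ran from 7217601 to 33352631 per mouse, with a median of 20907756, and each of the 10 genes had at least 288 reads in every mouse. Mouse 17 had the fewest reads and mouse 16 the next fewest (11256675). Both are low-calcium WT females, and mouse 18 of that group had 18606399. Fits without mice 16 and 17 together are given below. Per the authors, fewer reads mapped in the 3 low-calcium WT females (mice 16 to 18), bacterial contamination was possible there, and no reads were filtered out for it. *Fndc5* had between 0 and 17.8 normalized counts in the 23 mice and was at 0 in 7 of them, so it could not check the genotype labels in this tissue. It had 1.75 and 12.4 in the 2 low-calcium KO females, 0 to 2.69 in the other KO mice and 0 to 17.8 in WT mice. The libraries are labelled as long bone osteocyte, and the summed count of 8 osteocyte markers ran from 8721 to 72255 per mouse. The 10 neutrophil genes together took 0.796% to 2.14% of all normalized counts.

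Per kilobase of exon, the median level over the 23 mice was 89589 normalized counts for *S100a8* and 70531 for *S100a9*, the pair of proteins that form calprotectin. *Camp* (17048), *Ltf* (16828), *Mpo* (16145), *Lcn2* (14774) and *Elane* (11231) followed, then *Ctsg* (2593), *Prtn3* (1714) and *Cxcr2* (621). The spread between mice went in another order. The highest mouse had 1.85 times the normalized count of the lowest for *Mpo*, 2.13 times for *Elane*, 4.89 times for *S100a8* and 6.75 times for *Cxcr2*.

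**Figure D1:**
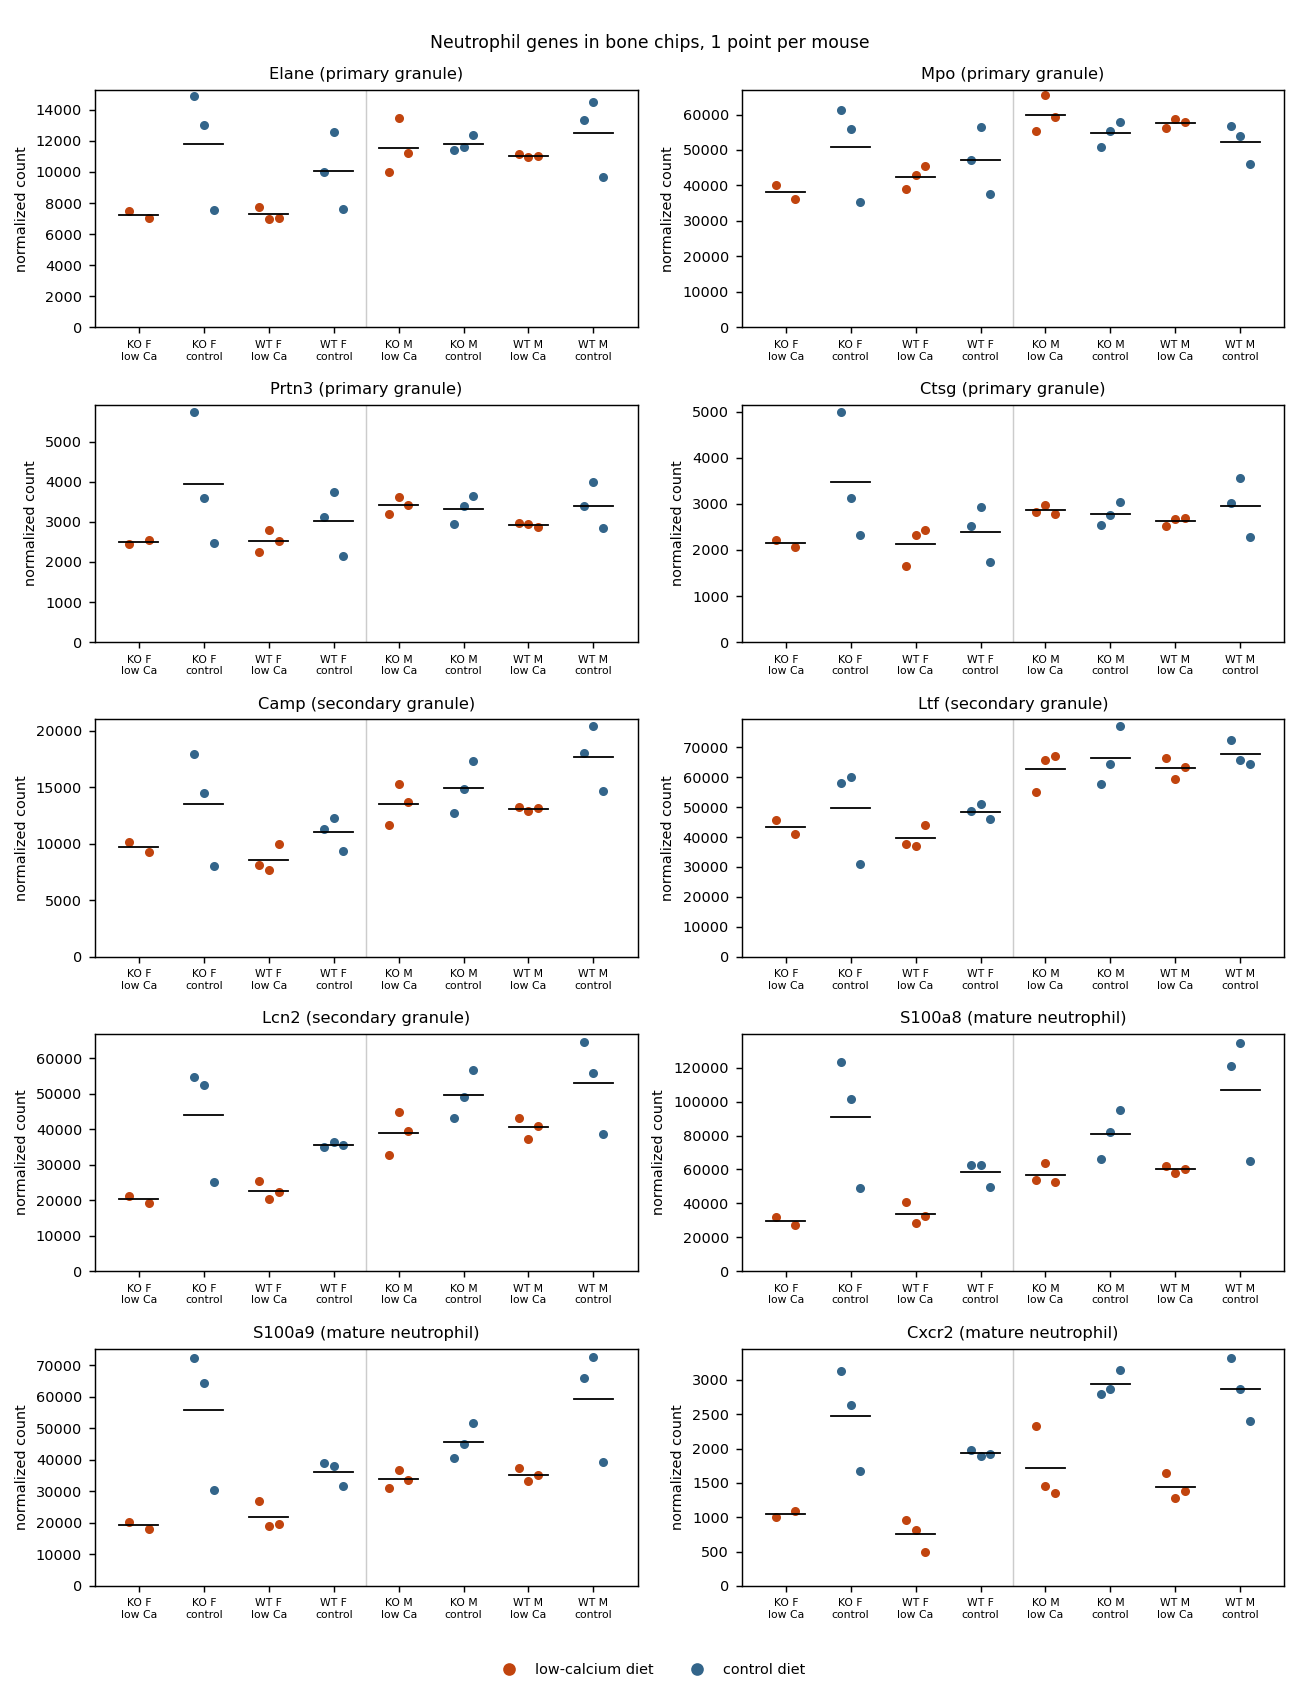
Normalized count (linear axis from 0) of each of the 10 genes, 1 point per mouse and a line at the group mean, with females left and males right of the grey line. For *Cxcr2* the 5 low-calcium females lie between 491 and 1092 and the 6 control females between 1673 and 3124.

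The first question was what the low-calcium diet did to these genes. Averaged over sex and genotype, 6 of the 10 genes were lower on the low-calcium diet and none was higher, where 15.4% of all genes tested were called lower and 16% higher. A gene was called when its p from limma, adjusted over the 15638 genes, was under 0.05, and a value after ± is the standard error of a log2 fold change. The falls were largest in the mature genes. *Cxcr2* had a log2 fold change of -1.10 ± 0.12 (adjusted p = 2.23e-06), a level of 0.466 times control. *S100a8* (-0.89 ± 0.14, adjusted p = 8.02e-05) and *S100a9* (-0.83 ± 0.12, adjusted p = 6.00e-05) followed, then *Lcn2* (-0.60 ± 0.11, adjusted p = 4.40e-04), *Camp* (-0.33 ± 0.10, adjusted p = 0.0209) and *Elane* (-0.32 ± 0.10, adjusted p = 0.0205). The other 4 genes did not pass, with log2 fold changes of -0.24 ± 0.11 for *Prtn3*, -0.22 ± 0.11 for *Ctsg*, -0.15 ± 0.09 for *Ltf* and -0.06 ± 0.08 for *Mpo*. The median log2 fold change was -0.89 over the 3 mature genes, -0.33 over the 3 secondary granule genes and -0.23 over the 4 primary granule genes, against -0.01 over all genes tested. In bulk tissue, fewer cells of a type and less RNA per cell cannot be told apart. Each of the 6 calls held in all 23 fits that left out 1 mouse, except that of *Camp*, which was lost without mouse 6 (-0.31, adjusted p = 0.0542) and also without mice 16 and 17 together (-0.27, adjusted p = 0.0798). *Prtn3* passed without mouse 32 (-0.30, adjusted p = 0.0331) or mouse 20 (-0.31, adjusted p = 0.0117), and *Ltf* (-0.23, adjusted p = 0.00471) and *Ctsg* (-0.28, adjusted p = 0.0352) passed without mouse 20.

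**Figure D2:**
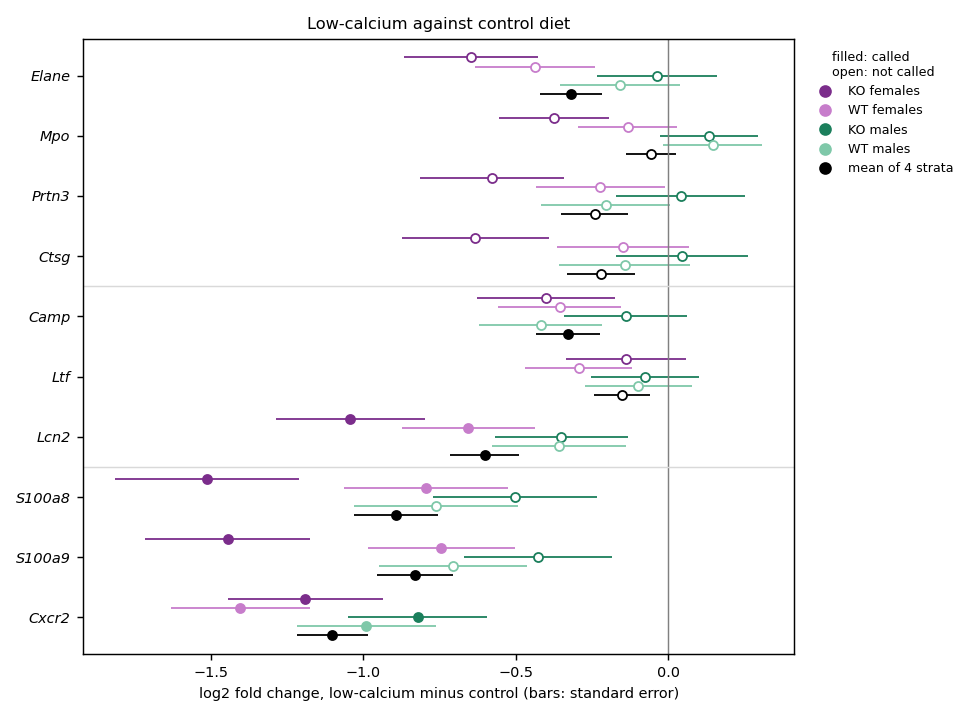
Log2 fold change of the low-calcium diet against the control diet (x axis, bars are the standard error of the limma fit) for each gene in KO females, WT females, KO males, WT males and their mean, filled where the adjusted p was under 0.05. *Cxcr2* is filled in all 4 strata, at -1.19, -1.40, -0.82 and -0.99.

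*Cxcr2* encodes the receptor for the neutrophil chemokines CXCL1, CXCL2 and CXCL5 in mice. It had 966, 821 and 491 normalized counts in WT females on the low-calcium diet, against 1977, 1893 and 1927 in WT females on the control diet. It had 1008 and 1092 in KO females on the low-calcium diet, against 3124, 2630 and 1673 in KO females on the control diet. In both genotypes every low-calcium female lay below every control female. WT males had 1642, 1282 and 1387 on the low-calcium diet, against 3316, 2868 and 2406 on the control diet. KO males had 2323, 1458 and 1351 on the low-calcium diet, against 2794, 2874 and 3151 on the control diet. No low-calcium male reached the lowest control male, and mouse 12, a KO male at 2323, came nearest. *Cxcr2* was the only one of the 10 genes called in each stratum. The log2 fold change was -1.40 ± 0.23 in WT females (adjusted p = 7.28e-04), -1.19 ± 0.25 in KO females (adjusted p = 0.0103), -0.99 ± 0.23 in WT males (adjusted p = 0.0151) and -0.82 ± 0.23 in KO males (adjusted p = 0.0494). The call in WT females held without each of the 6 mice in turn (-1.60 to -1.12). In KO females it was lost without mouse 4 (-0.999, adjusted p = 0.0624), mouse 5 (-1.13, adjusted p = 0.100) or mouse 6 (-1.25, adjusted p = 0.0979). In WT males it was lost without mouse 7 (-0.88, adjusted p = 0.0861), mouse 9 (-0.91, adjusted p = 0.0846) or mouse 26 (-0.97, adjusted p = 0.0625). In KO males it held without mouse 12 (-1.06, adjusted p = 0.0231) and was lost without any one of mice 10, 27, 28, 29 and 31 (-0.86 to -0.67, adjusted p = 0.120 to 0.161).

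*S100a8* encodes a calcium-binding protein of the neutrophil cytosol. It had 40825, 28191 and 32488 normalized counts in WT females on the low-calcium diet, against 62908, 62675 and 49561 in WT females on the control diet. It had 32244 and 27521 in KO females on the low-calcium diet, against 123166, 101318 and 49082 in KO females on the control diet. The control KO females spread widely, yet no low-calcium female of either genotype reached the lowest control female. WT males had 62175, 57883 and 60263 on the low-calcium diet, against 120993, 134512 and 65067 on the control diet. KO males had 53640, 64033 and 52336 on the low-calcium diet, against 65960, 81960 and 94736 on the control diet. The males did not overlap between diets in either genotype, but mice 8 and 25 in WT and mice 29 and 10 in KO lay close to each other. The fall was called in KO females (-1.51 ± 0.30, adjusted p = 0.00780) and in WT females (-0.80 ± 0.27, adjusted p = 0.0487), and not in WT males (-0.76 ± 0.27, adjusted p = 0.102) or KO males (-0.50 ± 0.27, adjusted p = 0.339).

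*S100a9*, the partner of S100A8, went with it, at a ratio of *S100a8* to *S100a9* between 1.47 and 1.85 in all 23 mice. It ranged over 18139 to 26843 normalized counts in the 5 females on the low-calcium diet, against 30564 to 72249 in the 6 females on the control diet. It ranged over 31085 to 37486 in the 6 males on the low-calcium diet, against 39425 to 72658 in the 6 males on the control diet. As for *Cxcr2* and *S100a8*, the diets did not overlap in either sex with the genotypes pooled. These 3 of the 10 genes were separate and lower in females, where 3.59% of all genes tested were, and the same 3 in males, where 3.8% were. *S100a9* was called in KO females (-1.44 ± 0.27, adjusted p = 0.00629) and WT females (-0.74 ± 0.24, adjusted p = 0.0414), and not in WT males (-0.71 ± 0.24, adjusted p = 0.0937) or KO males (-0.43 ± 0.24, adjusted p = 0.373). In WT males both genes were called without mouse 25, the lowest control mouse (-1.09, adjusted p = 0.0202 for *S100a8*, and -0.98, adjusted p = 0.0226 for *S100a9*).

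Of the secondary granule genes, *Lcn2* encodes lipocalin 2, which binds bacterial iron carriers and is also made by cells other than neutrophils, osteoblasts among them. It had 25352, 20336 and 22356 normalized counts in WT females on the low-calcium diet, against 34860, 36409 and 35530 in WT females on the control diet. It had 21167 and 19286 in KO females on the low-calcium diet, against 54700, 52412 and 25185 in KO females on the control diet. Within each genotype the female groups did not overlap, although mouse 20, the lowest control KO female, lay just below mouse 16, the highest low-calcium WT female. In males the diets overlapped, over 32732 to 44961 in the 6 on the low-calcium diet, against 38752 to 64562 in the 6 on the control diet. *Lcn2* was called in KO females (-1.04 ± 0.24, adjusted p = 0.0163) and WT females (-0.66 ± 0.22, adjusted p = 0.0456), and had -0.36 ± 0.22 in WT males and -0.35 ± 0.22 in KO males. *Camp*, which encodes the antimicrobial peptide cathelicidin, was called in no single stratum, with log2 fold changes of -0.42 to -0.14. *Ltf* encodes the iron-binding lactoferrin, and its log2 fold changes were between -0.29 in WT females and -0.08 in KO males.

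Of the primary granule genes, *Elane* encodes neutrophil elastase. It had 7759, 6991 and 7066 normalized counts in WT females on the low-calcium diet, against 9997, 12554 and 7597 in control WT females, with overlap. It had 7482 and 7020 in KO females on the low-calcium diet, against 14871, 13020 and 7559 in KO females on the control diet, where the groups were separate but mice 5 and 20 were nearly level. In males the diets overlapped in both genotypes, over 10009 to 13498 on the low-calcium diet, against 9682 to 14490 on the control diet. *Elane* was called in the average over the 4 strata and in no single stratum, although it passed in WT females without mouse 32 (-0.62, adjusted p = 0.04997). *Mpo* encodes myeloperoxidase, the most abundant enzyme of the primary granule, and did not pass in any stratum, with a log2 fold change of -0.37 ± 0.18 in KO females, -0.13 ± 0.16 in WT females, 0.13 ± 0.16 in KO males and 0.14 ± 0.16 in WT males. The serine proteases *Prtn3* (proteinase 3) and *Ctsg* (cathepsin G) had log2 fold changes of -0.58 ± 0.24 and -0.63 ± 0.24 in KO females and between -0.22 and 0.04 in the other strata, none of which passed. In KO females the median log2 fold change was -0.61 over the primary granule genes and -0.40 over the secondary granule genes, and no difference between stages was tested.

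Counted by stratum, 4 of the 10 genes were lower in WT females, where 6.62% of all genes tested were called lower, and 4 in KO females, where 3.91% were. These were *Lcn2*, *S100a8*, *S100a9* and *Cxcr2* in both. In WT males 1 gene was lower, where 2.7% of all genes were, and in KO males 1 gene was lower, where 1.53% of all genes were, *Cxcr2* in both. No gene of the 10 was higher in any stratum. DESeq2 on recovered reads called 4 genes lower in WT females, 7 in KO females, 3 in WT males and 1 in KO males, where it called 7.07%, 6.42%, 5.07% and 2.92% of all genes lower. In the same order edgeR called 4, 4, 1 and 0 genes lower, and 6.01%, 4.59%, 3.86% and 1.44% of all genes. The low-calcium group lay wholly below the control group for 5 genes in WT females, 6 in KO females, 4 in WT males and 3 in KO males, as it did for 13.6%, 21.5%, 15.8% and 12.1% of all genes. In WT females the calls of *Lcn2*, *S100a8* and *S100a9* lay close to the threshold. That of *Lcn2* was lost without any one of the 6 mice (-0.74 to -0.58, adjusted p = 0.0576 to 0.120). Those of *S100a8* (-0.94, adjusted p = 0.0475) and *S100a9* (-0.90, adjusted p = 0.0337) held without mouse 16 and were lost without any one of mice 1, 14, 32, 17 and 18 (adjusted p = 0.0544 to 0.144 for *S100a8* and 0.0514 to 0.140 for *S100a9*). Without mice 16 and 17 together, 1 gene, *Cxcr2*, was called in WT females. In KO females *Lcn2* was called without mouse 20 (-1.41, adjusted p = 2.83e-04) and lost without mouse 4 (-0.85, adjusted p = 0.0912), mouse 19 (-0.88, adjusted p = 0.0517), mouse 5 (-1.11, adjusted p = 0.0980) or mouse 6 (-0.98, adjusted p = 0.155). *S100a8* and *S100a9* held without any control KO female and were lost without mouse 5 (-1.63, adjusted p = 0.0611, and -1.52, adjusted p = 0.0570) or mouse 6 (-1.40, adjusted p = 0.1101, and -1.36, adjusted p = 0.0932), each of which leaves 1 low-calcium KO female. Mouse 20 had the lowest counts of the 3 control KO females in all 10 genes, and without it all 10 genes were called lower in KO females. Calls over all genes changed with the mouse as well. In either direction, 1613 genes were called without mouse 20, 845 without mouse 19 and 194 without mouse 4. With all mice kept, 546 genes were called higher and 611 lower.

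Whether the response to the diet differed between sexes or genotypes was tested directly. At an adjusted p under 0.05, none of the 10 genes was called in any of the 4 such tests in limma, edgeR or DESeq2. Of all genes tested, 0.173% were called in WT females against WT males and 0% in KO females against KO males, and 0.0128% in KO females against WT females and 0% in KO males against WT males. In the same order of these 4 tests DESeq2 called 0.633%, 1.1%, 3.35% and 0.0832% of all genes, and edgeR 0.0448%, 0%, 0.0128% and 0%. At an unadjusted p under 0.05 there were 5 genes in KO females against KO males, with 13.7% of all genes. There were 0 in WT females against WT males, in KO females against WT females and in KO males against WT males, with 13.8%, 16.8% and 5.38% of all genes. The 5 in KO females against KO males were *S100a9* (difference between log2 fold changes -1.02 ± 0.36, adjusted p = 0.244), *S100a8* (-1.01 ± 0.40, adjusted p = 0.286), *Lcn2* (-0.69 ± 0.33, adjusted p = 0.362), *Ctsg* (-0.68 ± 0.32, adjusted p = 0.366) and *Mpo* (-0.51 ± 0.24, adjusted p = 0.365). For *Cxcr2* the difference was -0.37 ± 0.34 in KO females against KO males and -0.41 ± 0.32 in WT females against WT males. With library quality weights *S100a9* was called in KO females against KO males (-1.11, adjusted p = 0.0313) and against WT females (-0.89, adjusted p = 0.0370). DESeq2 at the thresholds the study used, a p under 0.01 before adjustment and a log2 fold change past 1, called *S100a8* (-1.10) and *S100a9* (-1.11) in KO females against KO males.

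The stages can also be set against each other within a library, where a change of all neutrophil RNA cancels. The mean log2 count of the 4 primary granule genes minus that of the other 6 genes was -1.47 to -1.23 in the 6 males on the low-calcium diet, against -1.95 to -1.61 in the 6 males on the control diet, with no overlap. In females it was -1.29 to -0.81 in the 5 on the low-calcium diet, against -1.73 to -1.20 in the 6 on the control diet, and mice 16 and 14 overlapped. The *Cxcr2* count as a share of the *Elane* count was 6.95% to 15.6% in low-calcium females, against 15.1% to 25.4% in control females. It was 10.8% to 14.7% in 5 low-calcium males and 23.2% in mouse 12, against 19.8% to 25.5% in control males. These ratios were not tested.

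**Figure D3:**
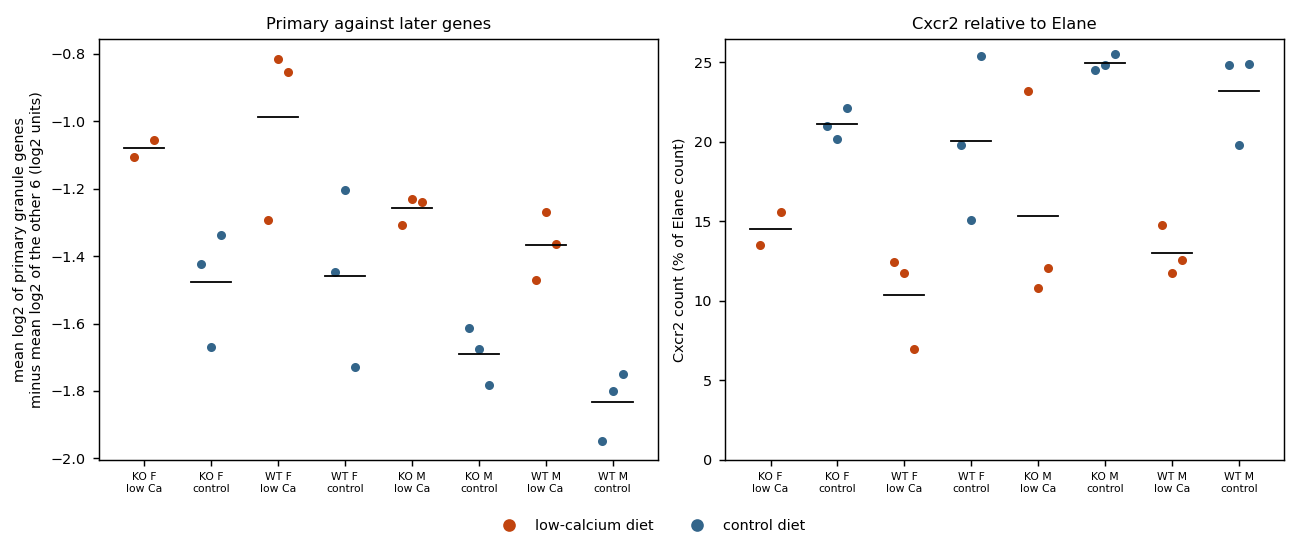
Left, mean log2 count of the 4 primary granule genes minus that of the other 6 genes (log2 units), and right, *Cxcr2* count as a percent of the *Elane* count, 1 point per mouse with a line at the group mean. On the right the low-calcium mice lie between 6.95% and 15.6%, other than mouse 12 at 23.2%.

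Other genes of the neutrophil were counted on the low-calcium diet in the same way, averaged over the strata, beside the 15.4% of all genes that were lower and the 16% that were higher. Of 15 other mature neutrophil genes 13 were lower and none higher (median log2 fold change -0.60), among them *Ccl6*, a chemokine (-0.89 ± 0.09, adjusted p = 1.04e-06), and *Csf3r*, the receptor for granulocyte colony-stimulating factor (-0.69 ± 0.08, adjusted p = 6.76e-06). Of 10 other secondary and tertiary granule genes 6 were lower and none higher (median -0.35), among them the collagenase *Mmp8* (-0.75 ± 0.11, adjusted p = 6.22e-05) and *Olfm4* (-0.58 ± 0.09, adjusted p = 9.45e-05). All 6 NADPH oxidase genes, which encode the enzyme of the respiratory burst, were lower (median -0.31). Of 8 other promyelocyte genes 3 were lower (median -0.15), *Trem3* (-0.50 ± 0.11), *Serpinb1a* (-0.27 ± 0.08) and *Ctsc* (-0.18 ± 0.07), the last being the protease that activates the serine proteases of the granule. Of 9 transcription factors of granulocytes 3 were lower and 3 higher (median 0.06), with *Irf8*, which favours monocytes over granulocytes, at -0.36 ± 0.05 (adjusted p = 1.98e-05) and *Cebpb*, a factor of emergency granulocyte production, at 0.33 ± 0.07 (adjusted p = 0.00141). *Cebpb* had 3376 to 4297 normalized counts in the 5 low-calcium females, against 1756 to 3341 in the 6 control females. In males the diets overlapped, with a median of 3692 on the low-calcium diet and 3849 on the control diet.

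Of 9 growth factors, chemokines and retention genes 3 were lower and 1 was higher (median log2 fold change -0.09), again beside 15.4% and 16% of all genes. The gene that was higher was *Csf3*, which encodes granulocyte colony-stimulating factor, with a log2 fold change of 2.40 ± 0.44 (adjusted p = 3.94e-04). *Csf3* was a gene of low counts, at 40.4 to 235 normalized counts in the 5 low-calcium females, against 1.20 to 82.9 in the 6 control females, and at 11.0 to 54.7 in the 6 low-calcium males, against 2.05 to 18.8 in the 6 control males. The ranges overlapped in both sexes. *Cxcl2*, a ligand of CXCR2, was lower (-0.85 ± 0.13, adjusted p = 7.25e-05), with 1678 to 2783 normalized counts in the 6 low-calcium males, against 5319 to 6995 in the 6 control males, and overlapping ranges in females.

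Markers of other cells moved with the diet too, and their counts stand beside the same 15.4% of all genes lower and 16% higher. All 8 osteoblast markers were higher on the low-calcium diet (median log2 fold change 1.10), and their summed count was 453552 to 1252340 in low-calcium females, against 216143 to 387012 in control females, and 376395 to 738697 in low-calcium males, against 107765 to 222582 in control males. Of 7 osteoclast markers 6 were higher (median 1.35), with a summed count of 17986 to 33602 in low-calcium females, against 5046 to 11701 in control females. In males it was 10644 to 21003 on the low-calcium diet, against 2948 to 11259 on the control diet, with overlap. All 7 eosinophil markers were lower (median -1.98), with a summed count of 501 to 677 in low-calcium females, against 877 to 6570 in control females, as were all 7 markers of T and NK lymphocytes (median -0.68). Of 10 monocyte and macrophage markers 4 were lower and 1 higher (median -0.19), and of 12 B lymphocyte markers 4 were lower (median -0.06). Of 5 erythroid markers tested none was called (median -0.05), and of 8 cell division genes 1 was higher (median -0.06). All 9 hepatocyte markers (median -2.24) and 2 of 9 skeletal muscle markers (median -0.39) were lower. Both sums stood apart in control WT males, at 1501 to 19046 for the hepatocyte markers and 2302 to 3069 for the muscle markers. In WT females the hepatocyte sum was 90.4 to 177 on the low-calcium diet, against 27.7 to 72.7 on the control diet. The part of these other cells in the falls of the neutrophil genes was not tested.

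**Figure D4:**
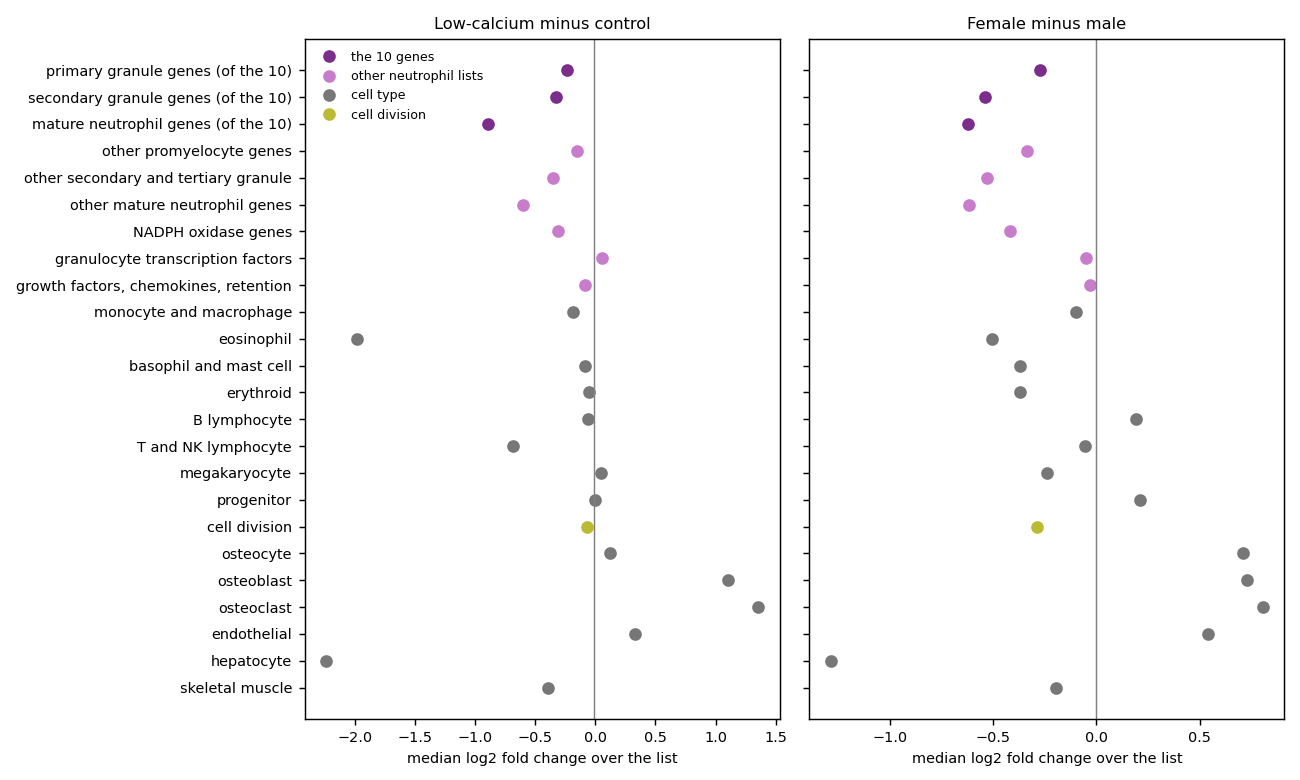
Median log2 fold change over each gene list (x axis), averaged over the 4 strata, for the low-calcium diet against the control diet (left) and females against males (right), with the median over all genes tested as a grey line. The mature neutrophil genes of the 10 lie at -0.89 on the left and -0.62 on the right, and the osteoblast markers at 1.10 and 0.73.

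The second comparison was between the sexes. Averaged over genotype and diet, 8 of the 10 genes were lower in females than in males and none was higher, where 20% of all genes tested were called lower and 20.1% higher. The log2 fold changes of the 8 were closer together than those of the diet. They were -0.64 ± 0.11 for *Lcn2* (adjusted p = 2.33e-04), -0.62 ± 0.14 for *S100a8* (adjusted p = 0.00148), -0.62 ± 0.12 for *Cxcr2* (adjusted p = 4.15e-04), -0.54 ± 0.09 for *Ltf* (adjusted p = 1.80e-04), -0.50 ± 0.10 for *Camp* (adjusted p = 9.40e-04), -0.50 ± 0.12 for *S100a9* (adjusted p = 0.00354), -0.41 ± 0.10 for *Elane* (adjusted p = 0.00313) and -0.35 ± 0.08 for *Mpo* (adjusted p = 0.00246). *Ctsg* (-0.20 ± 0.11) and *Prtn3* (-0.18 ± 0.11) did not pass, and both passed without mouse 4, a control KO female with the highest counts of both genes among the 23 mice (adjusted p = 0.0266 and 0.0233). The median log2 fold change was -0.27 over the primary granule genes, -0.54 over the secondary granule genes and -0.62 over the mature genes, against -0.00066 over all genes tested. All 8 calls held in each of the 23 fits that left out 1 mouse. That of *Mpo* was lost under quantile normalization (-0.12, adjusted p = 0.118). In KO mice on the control diet, 6 of the 10 log2 fold changes were negative, over a range of -0.47 to 0.26.

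**Figure D5:**
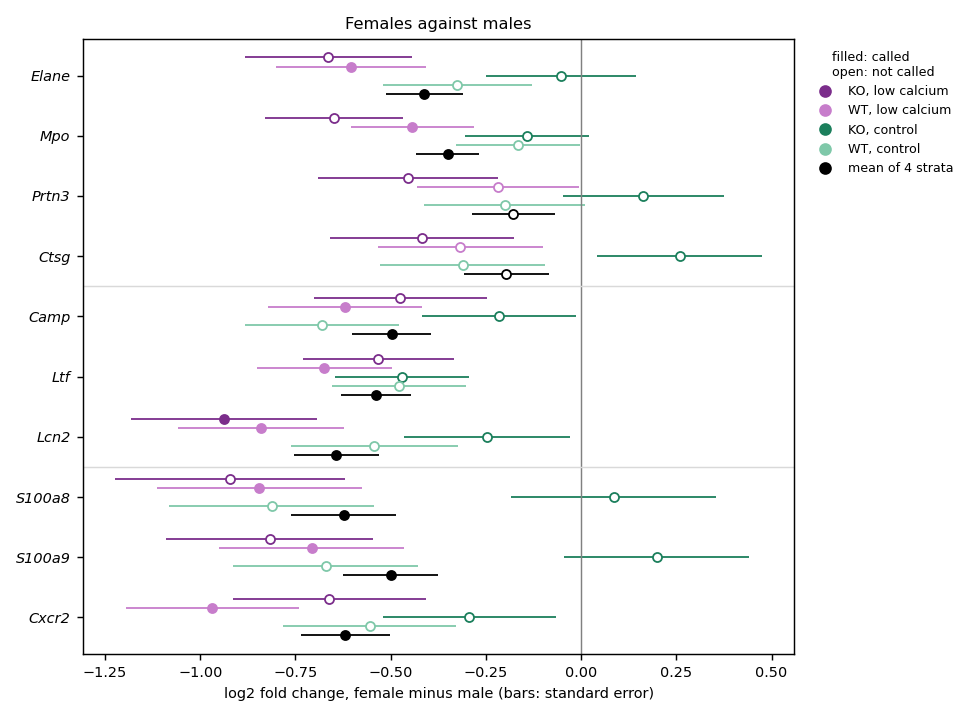
Log2 fold change of females against males (x axis, bars are the standard error of the limma fit) for each gene on the low-calcium diet and the control diet in KO and WT mice, and their mean, filled where the adjusted p was under 0.05. In WT mice on the low-calcium diet 8 genes are filled, in KO mice on that diet only *Lcn2*, and on the control diet none.

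In WT mice on the low-calcium diet 8 of the 10 genes were lower in females, where 14.8% of all genes were called lower, and females lay wholly below males in all 10 genes, as they did in 21.4% of all genes. *Ltf* had 37787, 37080 and 44161 normalized counts in WT females, against 66480, 59534 and 63486 in WT males, and the fold change on the log2 scale was -0.67 ± 0.18 (adjusted p = 0.00704). *Lcn2* had -0.84 ± 0.22 (adjusted p = 0.00667) and *Cxcr2* had -0.97 ± 0.23 (adjusted p = 0.00354). These 3 calls held without each of the 6 mice in turn. The other 5 were nearer to the threshold, and the number of the 10 genes called fell to 3 to 6 when 1 mouse was left out. In these fits the calls over all genes, in either direction, ran from 3539 without mouse 8 to 5580 without mouse 17. With all mice kept, 2671 genes were called higher and 2322 lower. *Elane* (-0.60 ± 0.20, adjusted p = 0.0236) and *S100a9* (-0.71 ± 0.24, adjusted p = 0.0310) held only without mouse 16, *Camp* (-0.62 ± 0.20, adjusted p = 0.0242) only without mouse 18, *S100a8* (-0.85 ± 0.27, adjusted p = 0.0211) only without mouse 16 or mouse 9, and *Mpo* (-0.44 ± 0.16, adjusted p = 0.0413) in none of the 6, with adjusted p of 0.0555 to 0.128. Without any one of the other mice the adjusted p was up to 0.0633 for *Elane*, 0.0706 for *Camp*, 0.0682 for *S100a8* and 0.0964 for *S100a9*. Without mice 16 and 17 together 2 genes were called, *Lcn2* and *Cxcr2*.

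In KO mice on the low-calcium diet 1 gene, *Lcn2*, was lower in females, where 1.5% of all genes were called lower. *Lcn2* had 21167 and 19286 normalized counts in KO females, against 32732, 44961 and 39482 in KO males, a log2 fold change of -0.94 ± 0.24 (adjusted p = 0.0429). This call held without mouse 12 (-1.06, adjusted p = 0.0371) and was lost without mouse 5 (-1.01, adjusted p = 0.167), mouse 6 (-0.87, adjusted p = 0.354), mouse 29 (-0.83, adjusted p = 0.135) or mouse 31 (-0.92, adjusted p = 0.0727). The KO females lay below the KO males in all 10 genes, as in 21.6% of all genes, and 8 genes were lower at an unadjusted p under 0.05, as were 11.9% of all genes. DESeq2 called 5 of the 10 genes lower and edgeR 1, where they called 4.2% and 1.54% of all genes lower. The log2 fold changes of the other 9 genes ran from -0.92 for *S100a8* to -0.42 for *Ctsg*.

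On the control diet no gene of the 10 was called between the sexes in limma in either genotype. In WT mice, where 1.89% of all genes were called in either direction, 6 genes were lower at an unadjusted p under 0.05, as were 8.33% of all genes. DESeq2 called 3 lower and edgeR 0, where they called 1.75% and 0.889% of all genes lower. These 6 were *Camp* (-0.68 ± 0.20, adjusted p = 0.0861), *S100a8* (-0.81 ± 0.27, adjusted p = 0.118), *S100a9* (-0.67 ± 0.24), *Cxcr2* (-0.56 ± 0.23), *Lcn2* (-0.54 ± 0.22) and *Ltf* (-0.48 ± 0.18), and females lay wholly below males in these 6 of the 10 genes, as they did in 12.7% of all genes. Without mouse 25, *S100a8* (-1.14, adjusted p = 0.0270) and *S100a9* (-0.94, adjusted p = 0.0434) were called. In KO mice, where 3.91% of all genes were called in either direction, 1 gene, *Ltf*, had an unadjusted p under 0.05 (-0.47 ± 0.18, adjusted p = 0.118), as did 22.7% of all genes. In this comparison edgeR and DESeq2 called 0 of the 10 genes, and 3.11% and 8.67% of all genes. The control KO females spread widely, with mouse 20 low and mice 4 and 19 high, and overlapped the control KO males in all 10 genes, where 29.6% of all genes did not overlap. *Ltf* was called in KO mice without mouse 19 (-0.64, adjusted p = 0.0432). With all mice kept, the 10 log2 fold changes in KO mice ran from -0.47 to 0.26, and 6 were negative. Their medians were 0.06 over the primary granule genes, -0.25 over the secondary granule genes and 0.09 over the mature genes. The median over all genes tested was 0.01.

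Of the other neutrophil lists, beside the 20% of all genes lower and 20.1% higher, 13 of 15 mature genes, 9 of 10 secondary and tertiary granule genes, 7 of 8 promyelocyte genes and all 6 NADPH oxidase genes were lower in females, averaged over the strata, with median log2 fold changes of -0.61, -0.53, -0.33 and -0.42. Examples were *Mmp25* (-0.64 ± 0.08, adjusted p = 1.35e-05), a membrane-bound metalloproteinase of the neutrophil, *Cd177* (-0.55 ± 0.09, adjusted p = 1.06e-04), a surface protein that holds proteinase 3 on human neutrophils, and *Fcnb* (-0.58 ± 0.10, adjusted p = 1.56e-04), a lectin. *Cebpe*, the factor needed for secondary granules, had a log2 fold change of -0.57 ± 0.10 (adjusted p = 2.05e-04), and *Cxcr4* had -0.31 ± 0.06 (adjusted p = 5.15e-04). *Cxcl1*, a ligand of CXCR2, was higher in females (1.04 ± 0.27, adjusted p = 0.00512). On the low-calcium diet it had 188 to 781 normalized counts in females, against 39.5 to 169 in males. On the control diet the sexes overlapped, at 69.9 to 289 in females and 59.1 to 309 in males. Of the markers of other cells, all 8 osteoblast, all 7 osteoclast and all 6 endothelial markers and 5 of 8 osteocyte markers were higher in females (medians 0.73, 0.80, 0.54 and 0.71), as were 5 of 12 B lymphocyte markers, with 1 lower. Of 5 erythroid markers 4 were lower (median -0.37), as were 4 of 6 basophil and mast cell markers (median -0.37) and 2 of 7 eosinophil markers (median -0.51), and all 8 cell division genes were lower (median -0.29). The summed count of the 10 monocyte and macrophage markers was 19997 to 27627 in low-calcium females, against 29610.5 to 34215 in low-calcium males. On the control diet it was 25092 to 35524 in females and 30668 to 38002 in males, with overlap. The part of these other cells in the lower neutrophil counts of females was not tested.

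The third comparison was between FNDC5 KO and WT mice. None of the 10 genes was called in limma, edgeR or DESeq2 in any of the 4 strata or in their average. The share of all genes called was 0.0576% in the average, 0% in females on the control diet, 1.24% in females on the low-calcium diet, 0.46% in males on the control diet and 0.00639% in males on the low-calcium diet. In the same order DESeq2 called 0.505%, 0.141%, 6.09%, 0.665% and 0.0384% of all genes, and edgeR 0.0128%, 0%, 1.25%, 0.435% and 0.0192%. At an unadjusted p under 0.05 there were 2 genes in females on the control diet, with 9.66% of all genes, and 1 in the average, with 9.04%. There were 0 in females on the low-calcium diet, males on the control diet and males on the low-calcium diet, with 20.9%, 6.76% and 3.52% of all genes. In females on the control diet these were *Ctsg* (0.50 ± 0.22, adjusted p = 0.476), with 4989, 3140 and 2332 normalized counts in KO females, against 2518, 2933 and 1738 in WT females, and *S100a9* (0.53 ± 0.24, adjusted p = 0.494). In the average it was *Cxcr2* (0.27 ± 0.12, adjusted p = 0.487). *Cxcr2* was higher in the KO mean in all 4 strata, and in females on the low-calcium diet the 1008 and 1092 normalized counts of the KO mice did not overlap the 966, 821 and 491 of the WT mice (0.52 ± 0.25, adjusted p = 0.245), where 32.6% of all genes did not overlap. Without mice 16 and 17 *Cxcr2* was called there (1.09, adjusted p = 0.0196), but that fit leaves mouse 18 alone, the lowest of the 3 at 491, and assumes that it varies like the other groups. With library quality weights *S100a9* was called in females on the control diet (0.57, adjusted p = 0.0456). In males on the low-calcium diet 2 genes lay wholly higher in KO than in WT mice, where 9.45% of all genes did not overlap. These were *Prtn3*, with 3210 to 3627 normalized counts against 2863 to 2969, and *Ctsg*, with 2775 to 2987 against 2518 to 2694. Over the 10 genes, the 95% intervals of the average log2 fold changes lay between -0.30 and 0.52. The medians were 0.09 over the primary granule genes, 0.01 over the secondary granule genes and -0.01 over the mature genes, against -0.0026 over all genes tested.

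In all 10 genes the 2 lowest of the 8 group means were those of WT and KO females on the low-calcium diet. For *S100a8* it ran from WT males (106857 ± 36818), KO females (91189 ± 38067) and KO males (80885 ± 14418) on the control diet over WT males on the low-calcium diet (60107 ± 2150), WT females on the control diet (58381 ± 7639) and KO males on the low-calcium diet (56670 ± 6410) to WT females (33835 ± 6424) and KO females (29882 ± 3340) on the low-calcium diet (SD, n = 3, or 2 in the last group). Neighbours in this order overlapped except at 2 steps, between KO males on the control diet and WT males on the low-calcium diet, and between KO males and WT females on the low-calcium diet. For *Cxcr2* the highest mean was that of KO males on the control diet (2940 ± 187) and the lowest that of WT females on the low-calcium diet (759 ± 243), with no overlap between WT males (1437 ± 185), KO females (1050 ± 58.8) and WT females on the low-calcium diet. For *Elane* all neighbours overlapped, from 12509 ± 2513 in WT males on the control diet to 7251 ± 327 in KO females on the low-calcium diet.

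The genes whose log2 counts went most closely with each stage over the 23 mice were found among all genes tested, without predicted genes, clones and small RNAs. The 23 libraries differ in diet, sex and depth, and these values are a description. *Ms4a3*, a gene of granulocyte and monocyte progenitors, was first for the mean of the primary granule genes, with Pearson's r of 0.93 and Spearman's rho of 0.91, and r of 0.90 without the 2 mice farthest from the median. *Hmgn2*, *Prelid1*, *Pgk1* and *Twf2* followed (r of 0.91 to 0.93). For the secondary granule genes it was *Cotl1* (r = 0.98, rho = 0.94, r = 0.98 without 2 mice), which encodes an actin-binding protein, followed by *Lcp1*, *Pglyrp1*, *Ngp* and *Anxa1* (r of 0.97 to 0.98), of which *Ngp* and *Pglyrp1* encode granule proteins. For the mature genes it was *Tyrobp* (r = 0.99, rho = 0.97, r = 0.99 without 2 mice), the adaptor of several receptors of myeloid cells, followed by *Cd52*, *Fcgr3*, *Ptpn6* and *Ifitm6* (r of 0.97 to 0.98).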

How the data were processed

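Total RNA of osteocyte-enriched bone chips was sequenced from 23 mice, 1 library each, which were the replicates. The deposited signal values are normalized read counts per gene. The authors checked reads with FastQC 0.11.5, mapped them to mm10 (STAR 2.7.10a), gave featureCounts the uniquely mapped ones by strand, and divided the counts by DESeq2 size factors. Which annotation they used is stated in none of the sources used here. Possible bacterial reads were left in, and 1 mouse that the authors left out, described by them as a control KO female, was not analysed here. The group with only 2 mice here is the low-calcium KO females. Every value was a whole number of reads (100% within 0.01 reads) after multiplication by 1 factor per library.

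Log2 values (pseudocount 1) were fitted with limma 3.58.1 in R 4.3.3, with a trend and 1 mean per group, instead of the DESeq2 of the study, since the values are normalized. The two-sided p-values got a Benjamini-Hochberg adjustment across every gene that passed the filter, and a gene was called at an adjusted p under 0.05. There were 12 comparisons of 2 groups, 3 averages over 4 strata, each stratum weighted equally, and 4 differences between diet effects. Values after ± are standard errors for log2 fold changes and SD elsewhere. The genes and lists were chosen with earlier results of these data known. All 10 genes are named, with up to 3 genes of each other neutrophil list per average by adjusted p (1 of them is not reported here), and the 5 genes most like each stage. Gene models are from GENCODE by symbol and promoters from RefSeq.

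Other settings tried were no filter, a pseudocount of 5, quantile normalization, library quality weights, edgeR 4.0.16 (TMM) and DESeq2 1.42.0 on recovered reads, DESeq2 at the thresholds the study used (a p under 0.01 before adjustment and a log2 fold change past 1), only the groups compared, leaving out mice 16 and 17, and leaving out each mouse. The fits were tested on simulated data. Other steps used numpy 2.4.6, scipy 1.17.1, pandas 2.3.3 and matplotlib 3.10.9 in Python 3.11.15. Replicate mice differed by 2.74 to 17.8 times the squared difference that counting alone gives (median over genes).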

Additional observations from a re-analysis of the deposited data

How the results depend on the processing

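Of 3410 values of the 10 genes under the alternatives, 3218 kept the call and direction or stayed uncalled, 117 lost a call, 75 gained one, and none of the called values changed sign. Of the uncalled values, 198 changed sign. The settings other than leaving out 1 mouse moved the median of all genes by -0.07 to 0.056 on the log2 scale. The numbers of genes called that differed by over 1.5 times from those of the report are given by setting. These are counts of the 10 genes alone, and calls over all genes changed with the setting too. For the diet in KO females, 611 of all genes were called lower in limma, 718 in edgeR and 1004 in DESeq2. The counts below are therefore no result about the 10 genes as against all genes. Without a filter they were 1 for the diet in WT females, 0 for the diet in KO males and 0 for sex in KO mice on the low-calcium diet. Under quantile normalization they were 2 for the diet in KO males and 1 for sex in KO mice on the control diet. With library quality weights they were 5 for the diet in WT males, 9 for the diet in KO females, 1 for KO against WT females on the control diet, 7 for sex in WT mice on the control diet, 7 for sex in KO mice on the low-calcium diet, and 1 each for the difference of diet effects between KO and WT females and between KO females and KO males. In edgeR the diet in KO males had 0. In DESeq2 there were 3 for the diet in WT males, 7 for the diet in KO females, 3 for sex in WT mice on the control diet and 5 for sex in KO mice on the low-calcium diet. At the thresholds of the study in DESeq2, which ask for a log2 fold change past 1, there were 1 for the diet in WT females, 0 in WT males and 0 in KO males, 1 for the diet and 0 for sex in the averages, 0 for sex on the low-calcium diet in WT and 0 in KO mice, and 2 for the difference between KO females and KO males. With only the groups compared there were 3 for the diet in WT males, 1 in KO females and 0 in KO males, 3 for sex in WT mice on the control diet and 0 in KO mice on the low-calcium diet. Without mice 16 and 17 there were 1 for the diet in WT females, 1 for KO against WT females on the low-calcium diet and 2 for sex in WT mice on the low-calcium diet. Leaving out 1 mouse at a time gave 1 to 3 for the diet in WT females, 0 to 10 in KO females, 0 to 3 in WT males and 0 to 1 in KO males, and for sex 0 to 2 in WT and 0 to 1 in KO mice on the control diet and 3 to 6 in WT and 0 to 1 in KO mice on the low-calcium diet. The cause of these changes was not tested, except that a fit without a mouse rests on fewer mice. No paired analysis was possible because the replicate numbers are the numbers of single mice and no number occurs in 2 groups.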
